A study of Homo sapiens with 62 samples.

Results

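Transcript levels are described here for 9 human genes of sterol metabolism, taken from pools of lymphoblastoid cells that were divided into small parts before amplification. The genes are HMGCS1, IDI1, FDPS, FDFT1, SQLE, LSS, EBP and DHCR7, which are enzymes of cholesterol synthesis, and INSIG1, which regulates it. None of them is a sterol uptake receptor. They were found by an exact match of gene symbol in the deposited tables, where each symbol had 1 row among 55040, and all 9 passed the filter on low values (a mean of 1 FPKM or more over the libraries analysed).

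All cells were GM12878, an Epstein-Barr virus-immortalised B-lymphoblastoid line from a single human donor, and no treatment or genetic change is given in the labels. Pools of 10 cells were divided into 10 parts each, and every part was then handled like a picked cell: polyadenylated RNA was copied and amplified with a SMARTer kit, and the fragmented product was read on an Illumina instrument. Of the 62 samples of the study 20 were analysed here, in 10 numbered splits (titled 1 to 10) and 10 unnumbered splits (known by library numbers 232, 233 and 246 to 253), and 42 were not analysed here. The labels do not say that each set came from 1 pool, so a p-value measures the spread between splits, which may be technical, and not the spread between cultures. For 9 of the 10 unnumbered splits, all but 247, the titles mark the records as superseded by a later submission, which was not analysed here.

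Cholesterol is built from acetyl-CoA through mevalonate and the isoprenoid diphosphates to squalene, which is closed into lanosterol and then trimmed and reduced in the endoplasmic reticulum. When membrane sterol is low, SREBP transcription factors are released and raise most genes of this route, and INSIG proteins hold the SREBP precursor back when sterol is plentiful. Dividing lymphoblastoid cells need the route for new membrane and for the prenyl groups that anchor small GTPases.

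SREBPs bind promoters together with NF-Y, a factor that recognises the CCAAT box, so the windows from 250 bases before to 50 bases after the annotated start were read from RefSeq (GRCh38.p14) for the 7 members that had one (all but FDFT1 and SQLE). Shown 5′ to 3′ on the strand of the gene are the windows of the early enzymes HMGCS1 and FDPS, the late enzyme DHCR7 and the regulator INSIG1, chosen as examples of an early low, an early abundant, a late and a regulatory gene. Capitals mark CCAAT or its reverse complement ATTGG.
HMGCS1, chr5:43313363-43313662, minus strand: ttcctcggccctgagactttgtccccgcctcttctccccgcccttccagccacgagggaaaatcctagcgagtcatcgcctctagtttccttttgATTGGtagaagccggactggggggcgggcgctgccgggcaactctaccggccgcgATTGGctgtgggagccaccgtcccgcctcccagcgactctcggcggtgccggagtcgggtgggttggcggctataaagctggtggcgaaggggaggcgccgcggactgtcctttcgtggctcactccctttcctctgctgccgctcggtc
FDPS, chr1:155308616-155308915, plus strand: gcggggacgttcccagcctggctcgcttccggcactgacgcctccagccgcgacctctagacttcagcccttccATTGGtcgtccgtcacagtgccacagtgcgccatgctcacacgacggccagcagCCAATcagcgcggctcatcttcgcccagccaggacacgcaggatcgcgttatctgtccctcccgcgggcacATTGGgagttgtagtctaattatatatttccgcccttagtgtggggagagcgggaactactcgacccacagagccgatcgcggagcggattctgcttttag
DHCR7, chr11:71448344-71448643, minus strand: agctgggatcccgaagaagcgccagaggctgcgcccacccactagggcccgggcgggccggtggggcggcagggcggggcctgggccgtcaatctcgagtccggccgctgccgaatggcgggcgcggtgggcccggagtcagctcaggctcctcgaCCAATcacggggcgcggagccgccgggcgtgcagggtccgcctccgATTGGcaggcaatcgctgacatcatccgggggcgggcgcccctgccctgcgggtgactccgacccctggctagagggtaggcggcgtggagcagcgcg
INSIG1, chr7:155297628-155297927, plus strand: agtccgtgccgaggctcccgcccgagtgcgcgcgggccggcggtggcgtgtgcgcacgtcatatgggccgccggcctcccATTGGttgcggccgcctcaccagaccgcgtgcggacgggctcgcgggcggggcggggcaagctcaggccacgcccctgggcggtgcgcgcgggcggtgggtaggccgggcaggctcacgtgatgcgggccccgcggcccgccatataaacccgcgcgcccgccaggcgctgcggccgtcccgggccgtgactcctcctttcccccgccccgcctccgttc
HMGCS1 has the motif at -155 and -100 from the start, FDPS at -176, -122 and -51, DHCR7 at -94 and -48, and INSIG1 at -170 (first base on the strand of the gene). CCAAT on either strand is present in 6 of the 7 members' windows, and in 35.7% of all 27305 promoter windows of the same length. The exception is the window taken for IDI1, the first of 3 listed for that gene, of which 2 hold the motif. HMGCS1 and DHCR7 have 2 windows listed each, of which 1 holds it. A loose form of the sterol regulatory element, TCACNCCAC, was found in none of the 7 windows on either strand and in 1.15% of all windows. The E-box CACGTG, present in 7.43% of all windows, occurs in those of LSS and INSIG1. These matches describe letters in a window and not binding.

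Library depth and quality differed between the sets. Depth, estimated from the authors' confidence bounds, was 11.8 to 20.6 M fragments (megafragments) in numbered splits. In unnumbered splits it reached 38.7 M, with 7.80 M in split 252 and 0.128 M in split 247. Genes at 1 FPKM or more numbered 3771 to 7671 in numbered and 2942 to 4792 in unnumbered splits, with the lowest count in split 253. All 6 B cell markers were present, with a summed level of 3903 to 7707 FPKM in numbered and 1557 to 3347 FPKM in unnumbered splits. Among 5 T cell markers 3 reached 1 FPKM anywhere (CD2, CD3E and TRAT1), and CD3D and CD3G never did. CD2 averaged 18.1 FPKM in numbered splits. The T cell sums were 0 to 53.4 FPKM in numbered and 0 to 5.61 FPKM in unnumbered splits. Of 5 myeloid markers only CSF1R reached 1 FPKM, and the sums were 1.46 to 53.8 FPKM in numbered and 0.905 to 1.65 FPKM in unnumbered splits. Mitochondrial genes made up 3.37 to 6.32% of FPKM in numbered and 6.18 to 8.17% in unnumbered splits. The part of these differences in the results below was not tested. A split is a part of a divided pool. Fewer cells with a transcript, less of it per cell, and its loss in dividing or copying cannot be told apart.

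FDPS, FDFT1 and EBP were the most abundant members and IDI1 followed, while HMGCS1, SQLE, DHCR7, INSIG1 and LSS were low and present in only some splits. A member counted as detected at 1 FPKM or more. Numbered splits held 7.1 ± 1.2 detected members and unnumbered splits 4.6 ± 1.51 (SD, n = 10 each). The highest count was 9 of 9 in numbered split 7 and 7 in unnumbered split 251. The lowest was 5 in numbered split 9 and 2 in unnumbered split 253, where only FDFT1 and EBP were detected. Summed over the 9 genes, the level was 822 to 2136 FPKM in numbered and 484 to 2247 FPKM in unnumbered splits, so the 2 ranges overlapped widely.

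**Figure D1:**
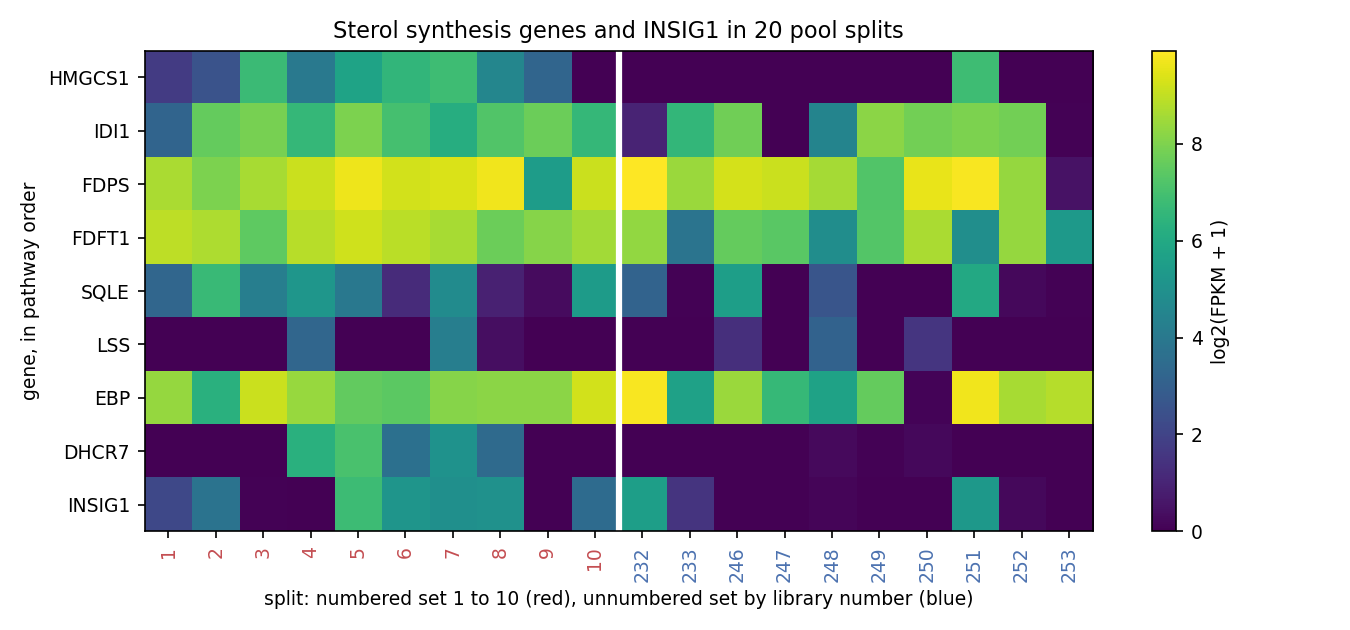
Level of each of the 9 genes (vertical axis, in pathway order) in each split (horizontal axis, numbered splits left of the white line and unnumbered splits right of it), coloured as log2(FPKM + 1). HMGCS1 is brightest, at 52.8 FPKM or more, in numbered splits 3, 5, 6 and 7 and in unnumbered split 251. It is dark in the other unnumbered splits, and DHCR7 is dark in all unnumbered splits.

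The colour map of the 9 genes shows that the abundant enzymes were seen almost everywhere, and the low ones in some splits only. HMGCS1 was detected in 9 numbered splits and 1 unnumbered split, and DHCR7 in no unnumbered split.

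HMGCS1 (ENSG00000112972.10), the synthase that makes HMG-CoA, the precursor of mevalonate, was the 1 member that passed the test between the sets, which 5.31% of all 10506 genes tested did. It ranged over 0.0118, 18.99 and 113 FPKM (lowest, median and highest) in numbered splits, and over 0, 2.1e-06 and 113 FPKM in unnumbered splits. It was detected in 9 of 10 numbered splits, all but split 10, and in 1 of 10 unnumbered splits, number 251 at 113 FPKM. The sets thus overlapped through numbered split 10 and unnumbered split 251. The difference, numbered minus unnumbered, was 3.52 ± 1.01 (SE) on the log2(FPKM + 1) scale, a scale that understates changes of low genes (limma adjusted p = 0.0393, exact rank-sum adjusted p = 0.0169). The call was fragile: in 15 of the 20 fits that left out 1 split HMGCS1 missed the threshold of 0.05, with adjusted p up to 0.0768, and without numbered splits 5 to 8 the difference was 2.37 (limma adjusted p = 0.361).

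A second annotated gene covers the 3′ end of HMGCS1. The deposited tables place HMGCS1 at positions 43289497 to 43313614 of chromosome 5 and the antisense gene CTD-2636A23.2 at 43287703 to 43290941 (genome build not given in the sources used here). In GENCODE 29, where CTD-2636A23.2 is named AC114947.2, the 2 lie on opposite strands and share 703 exon bases, 0 of them in HMGCS1 coding sequence. Library preparation is not stated to keep strand, so reads from the shared stretch cannot be assigned. CTD-2636A23.2 averaged 47.5 FPKM in numbered and 49.5 FPKM in unnumbered splits, and was at 1 FPKM or more in 9 and in 7 of them. In unnumbered splits 232, 233, 246, 248, 249 and 250 it stood at 27.2 to 181 FPKM while HMGCS1 was at or near 0. In numbered splits 5, 6 and 7 the balance was the other way, with HMGCS1 at 52.8, 91.6 and 113 FPKM and CTD-2636A23.2 at 2.58, 11.4 and 10.0 FPKM. With both genes added together the difference was 1.46 on the log2 scale and did not pass (limma adjusted p = 0.543). The files do not hold reads, and how fragments of the shared stretch were divided between the 2 genes was not tested.

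**Figure D2:**
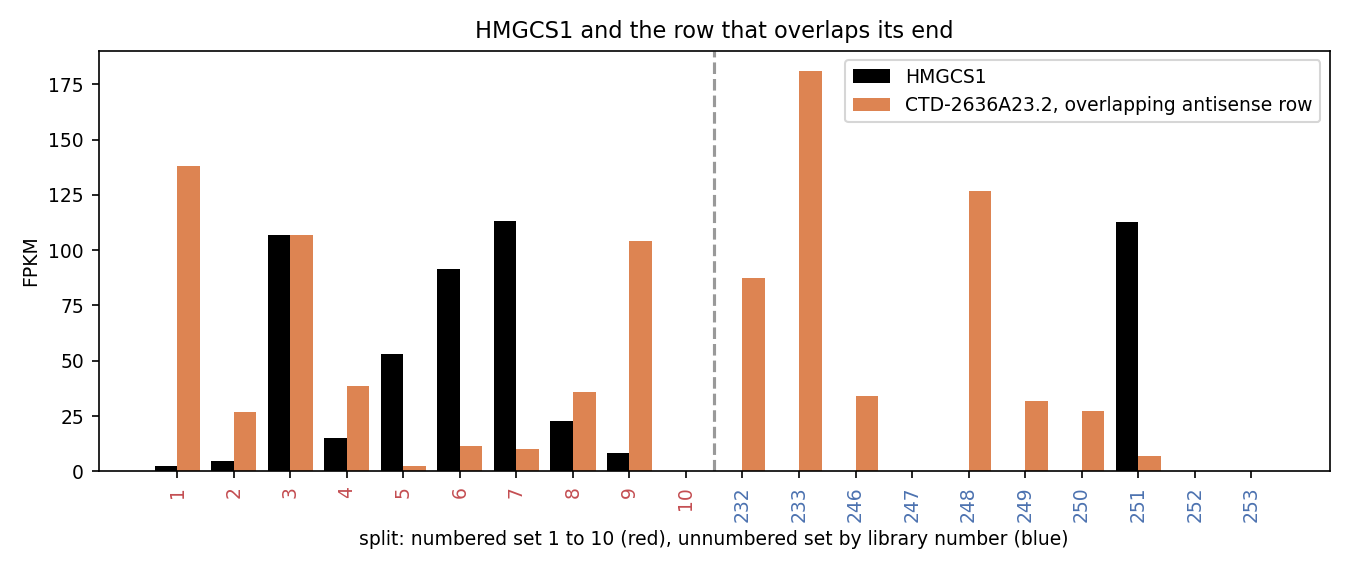
FPKM (vertical axis) of HMGCS1 (black bars) and of the antisense gene CTD-2636A23.2 (orange bars) in each split (horizontal axis), numbered splits left of the dashed line and unnumbered splits right of it. In 6 unnumbered splits the orange bar stands at 27.2 to 181 FPKM with no visible black bar.

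The bars of HMGCS1 and its antisense neighbour show both genes side by side in 9 numbered splits, and 1 of the pair alone in most unnumbered splits.

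IDI1, the isomerase that interconverts the isoprenoid building blocks, was detected in 10 of 10 numbered and 7 of 10 unnumbered splits. Its levels were 8.05, 138 and 246 FPKM in numbered and 0, 156 and 291 FPKM in unnumbered splits (lowest, median, highest). The medians were close and the ranges overlapped throughout, and the difference of 1.62 ± 1.10 (SE, log2) did not pass (limma adjusted p = 0.488). Unnumbered splits 232, 247 and 253 were at 0.978, 0 and 0.0530 FPKM and no numbered split was below 8.05 FPKM. Without split 247 the difference was 1.05, without split 253 it was 1.06, and without splits 9, 247 and 253 it was 0.24. FDPS, which makes farnesyl diphosphate at the branch point to sterols and prenyl groups, was the most abundant member in both sets. It averaged 509 ± 246 FPKM in numbered and 501 ± 321 FPKM in unnumbered splits (SD, n = 10 each), with lowest, median and highest levels of 43.4, 557 and 838 FPKM in numbered and 0.411, 466 and 968 FPKM in unnumbered splits. The difference of 0.61 ± 0.85 (SE, log2) did not pass (limma adjusted p = 0.714), and without unnumbered split 253 it was -0.23. The deposited files list 7 FDPS pseudogenes, of which 1 reached 1 FPKM in any split, at 14.3 FPKM.

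FDFT1, squalene synthase, which commits farnesyl diphosphate to sterols, was detected in all 20 splits and was the steadiest member of the numbered set. It averaged 385 ± 132 FPKM in numbered and 167 ± 144 FPKM in unnumbered splits (SD, n = 10 each). The lowest, median and highest levels were 174, 407 and 589 FPKM in numbered and 13.01, 159 and 408 FPKM in unnumbered splits. The ranges overlapped between 174 and 408 FPKM, with 5 numbered splits above all unnumbered ones and 6 unnumbered splits below all numbered ones. The difference was 1.86 ± 0.58 (SE, log2), the smallest error of the 9 genes. It lay near the threshold in the main fit (limma adjusted p = 0.0617, exact rank-sum adjusted p = 0.0357), and the outcome depended on the processing. Limma adjusted p was 0.035 with a filter at a mean of 10 FPKM. It was 0.14 with FPKM scaled by size factors, 0.109 with rescaled FPKM, 0.129 with no filter and 0.245 without numbered splits 5 to 8.

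SQLE, squalene epoxidase, catalyses a rate-controlling oxygenation. It was detected in 8 of 10 numbered and 4 of 10 unnumbered splits, at 0.213, 16.4 and 106 FPKM in numbered and 0, 0.103 and 61.6 FPKM in unnumbered splits (lowest, median, highest). The ranges overlapped, and the difference of 1.85 ± 1.03 (SE, log2) did not pass (limma adjusted p = 0.387). LSS, lanosterol synthase, closes the sterol ring and was the least abundant member of the numbered set. It was detected in 2 numbered splits, at 18.1 FPKM in split 7 and 8.58 FPKM in split 4, and in 3 unnumbered splits, at 7.77 FPKM in 248, 1.91 FPKM in 250 and 1.56 FPKM in 246. Its difference of 0.18 ± 0.62 (SE, log2) was far from the threshold (limma adjusted p = 0.890) and changed sign when numbered split 4 or 7 was left out (-0.09 and -0.20).

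EBP, the sterol isomerase that moves the ring double bond and also binds emopamil, averaged 313 ± 165 FPKM in numbered and 332 ± 325 FPKM in unnumbered splits (SD, n = 10 each), with lowest, median and highest levels of 77.7, 291 and 609 FPKM in numbered and 0.0784, 265 and 907 FPKM in unnumbered splits. The means and the medians thus differed in opposite directions. Unnumbered splits held both the lowest and the highest values, and the difference of 0.98 ± 0.86 (SE, log2) did not pass (limma adjusted p = 0.605). Without unnumbered split 250 it was 0.20.

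DHCR7 (ENSG00000172893.10), the last reductase before cholesterol, was detected in 5 numbered splits and in no unnumbered split. The 5 numbered values were 77.5 FPKM in split 4, 133 in split 5, 11.6 in split 6, 32.7 in split 7 and 9.69 in split 8, and the other 5 numbered splits listed 0. Unnumbered splits reached at most 0.206 FPKM. The detected values thus lay above the whole unnumbered range, while the remaining numbered splits lay within it. The difference was 2.50 ± 0.90 (SE, log2) and passed neither test (limma adjusted p = 0.123, exact rank-sum adjusted p = 0.744). An antisense gene, RP11-660L16.2, lies inside the deposited DHCR7 interval (71159720 to 71163203 within 71139239 to 71163914 of chromosome 11, build not given in the sources used here) and shares 0 exon bases with it in GENCODE 29. It reached 1 FPKM in numbered splits 4 and 8, at 65.4 and 12.8 FPKM, and in unnumbered splits 232, 247, 248, 249 and 250, at 101 to 130 FPKM. Summed with DHCR7 the difference was -0.68 (limma adjusted p = 0.815), but with no exon bases shared in that annotation the sum adds a separate gene. The antisense genes overlapping IDI1, FDPS and LSS had set means of at most 1.32 FPKM and were not added.

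INSIG1, the sterol-sensitive anchor of the SREBP complex and itself an SREBP target, was detected in 7 numbered and 3 unnumbered splits. Its levels were 0, 11.3 and 110 FPKM in numbered and 0, 0.0446 and 45.8 FPKM in unnumbered splits (lowest, median, highest). Unnumbered splits 232 and 251, at 45.8 and 37.9 FPKM, lay above 9 of the 10 numbered splits, so the sets overlapped, and the difference of 1.87 ± 1.04 (SE, log2) did not pass (limma adjusted p = 0.388).

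**Figure D3:**
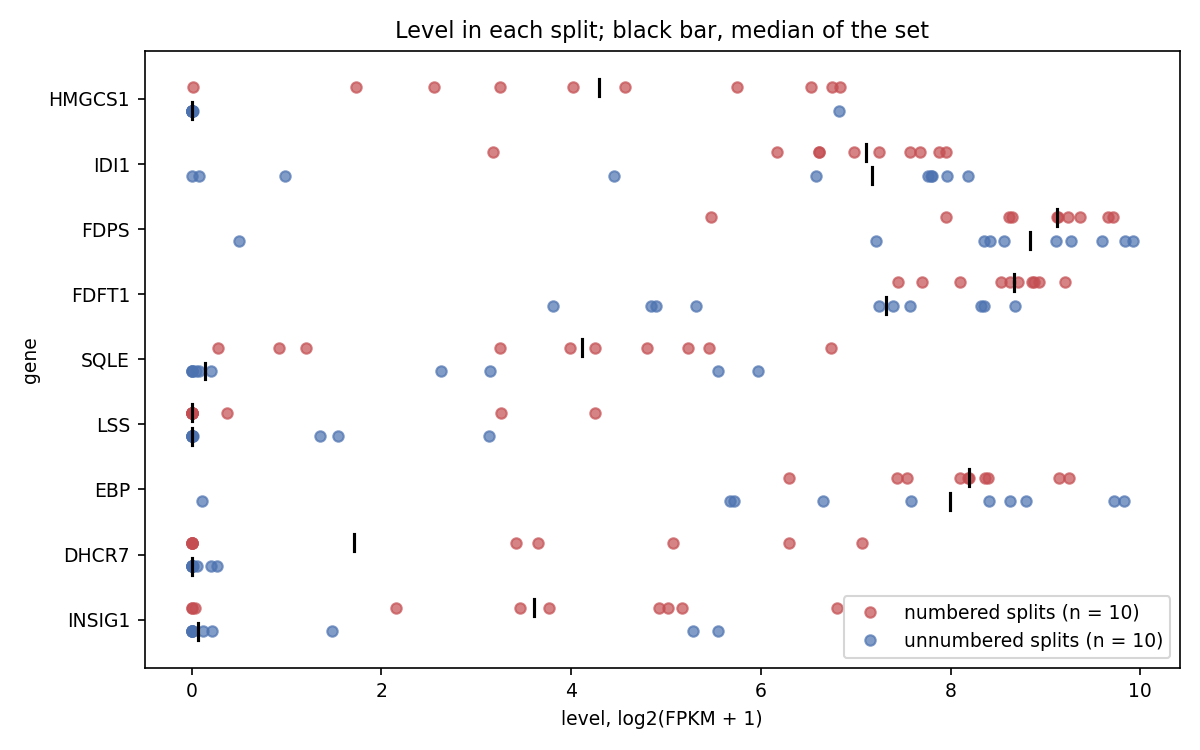
Level of each gene (rows) in each split on the log2(FPKM + 1) scale (horizontal axis), with numbered splits in red above unnumbered splits in blue and a black bar at the median of each set. FDFT1 has medians of 407 FPKM in numbered and 159 FPKM in unnumbered splits, whereas IDI1, FDPS and EBP have close medians in the 2 sets.

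The points by gene show 3 patterns: abundant genes with close medians (IDI1, FDPS, EBP), an abundant gene with a lower unnumbered median (FDFT1), and low genes whose unnumbered median was under 1 FPKM (HMGCS1, SQLE, DHCR7, INSIG1, and LSS in both sets).

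Across the 9 genes 1 was higher in numbered splits by limma at an adjusted p under 0.05 and 0 were lower. Over all 10506 genes tested 5.31% passed, 3.93% higher and 1.38% lower in numbered splits. By the exact rank-sum test 2 of the 9 passed (HMGCS1 and FDFT1), beside 9.07% of all genes. All 9 differences were above 0 and their median was 1.85 on the log2 scale. Over all genes tested 59.9% were above 0 and the median was 0.35, so most genes were higher in numbered splits. Under size factors those medians were 1.54 for the members and 0.22 for all genes, and with FPKM rescaled to the same total they were 1.55 and 0.24. LSS lay below the median of all genes in each of these scalings and the other 8 above it. The HMGCS1 call was lost under both rescalings (limma adjusted p = 0.0509 and 0.0542). Of all genes tested, 3760 averaged 1 to 10 FPKM in numbered splits, where this scale understates changes, so the 2 medians are not of like genes. The sign of the difference changed for LSS in 5 of 30 alternatives, for FDPS in 1 of 31 and for DHCR7 in 1 of 32. It changed for no other member.

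**Figure D4:**
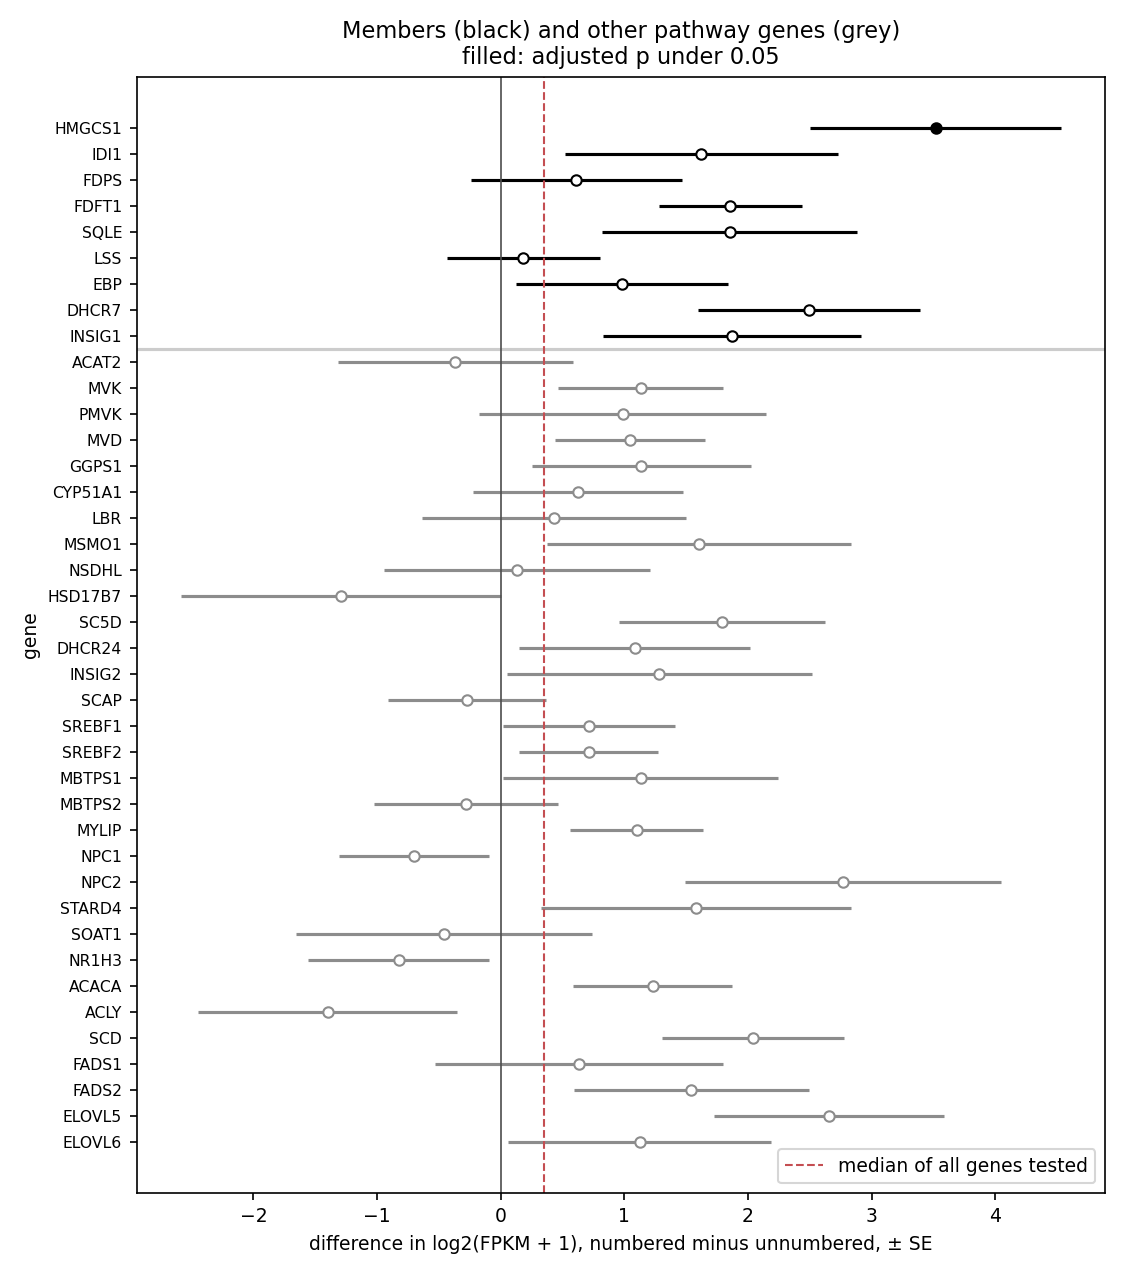
Difference in log2(FPKM + 1), numbered minus unnumbered splits (horizontal axis), with its standard error, for the 9 genes (black) and the 31 other pathway genes tested (grey). The filled point, HMGCS1 at 3.52, is the only one past an adjusted p of 0.05, and the dashed line marks the median of all genes tested, 0.35.

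The plot of differences shows wide errors throughout, with the 9 genes lying to the right of 0 and only HMGCS1 past the threshold.

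Laboratory experiment numbers divide the numbered set: splits 5 to 8 carry numbers apart from splits 1 to 4, 9 and 10, whose numbers run close to those of the unnumbered set. The labels name no batch, and this division is a reading of the numbers alone. The numbers between splits 232 and 233 and splits 246 to 253 belong to other samples of the study, so they leave no gap. With all samples of the study counted, splits 1 to 4, 9 and 10 and all unnumbered splits lie in the same unbroken run of numbers. Splits 5 to 8 lie in a separate run, which holds no unnumbered split. Whether the numbers mark a batch was not tested. In splits 5 to 8 INSIG1 stood at 110, 34.9, 29.5 and 31.5 FPKM, against 0 to 12.6 FPKM in the other 6 numbered splits, without overlap. DHCR7 was detected in 4 of 4 and 1 of 6 of these splits, and HMGCS1 in 4 of 4 and 5 of 6. In a fit of the 3 groups, added after the values were seen, 3.96% of all genes passed between splits 5 to 8 and the unnumbered set, and of the 9 members these were HMGCS1 (5.24, limma adjusted p = 0.0158), DHCR7 (4.75, limma adjusted p = 0.00478) and INSIG1 (4.21, limma adjusted p = 0.0483). DHCR7 reached the filter of a mean of 1 FPKM only through numbered splits, a choice that favours a call against the unnumbered set. HMGCS1 summed with its antisense gene did not pass between the 2 sets (1.46, limma adjusted p = 0.543), and that sum was not fitted for the 3 groups. Between the other 6 numbered splits and the unnumbered set 3.67% of all genes passed, and none of the 9. The direct difference between splits 5 to 8 and the other numbered splits passed for 0.019% of all genes and for none of the 9, with 3.75 for DHCR7 (limma adjusted p = 0.321) and 3.91 for INSIG1 (limma adjusted p = 0.488).

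By mean FPKM, which is scaled to transcript length, the order in numbered splits was FDPS, FDFT1, EBP, IDI1, HMGCS1, DHCR7, SQLE, INSIG1 and LSS. In unnumbered splits it was FDPS, EBP, FDFT1, IDI1, SQLE, HMGCS1, INSIG1, LSS and DHCR7. Between neighbours, the gap in mean was larger than the larger SD only for EBP over IDI1 (171 against 165 FPKM) and IDI1 over HMGCS1 (100.2 against 76.4 FPKM) in numbered splits, and for IDI1 over SQLE (119.7 against 119.2 FPKM) in unnumbered splits. For the other neighbours the gap was within the larger SD, a measure that leaves out that both genes were read in the same split. Within the same split, the higher of these neighbours was above the next in 4 to 9 of 10 splits. The 9 was for INSIG1 over LSS in numbered splits. For the pairs with the larger gaps it was 8 or 9 of 10.

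**Figure D5:**
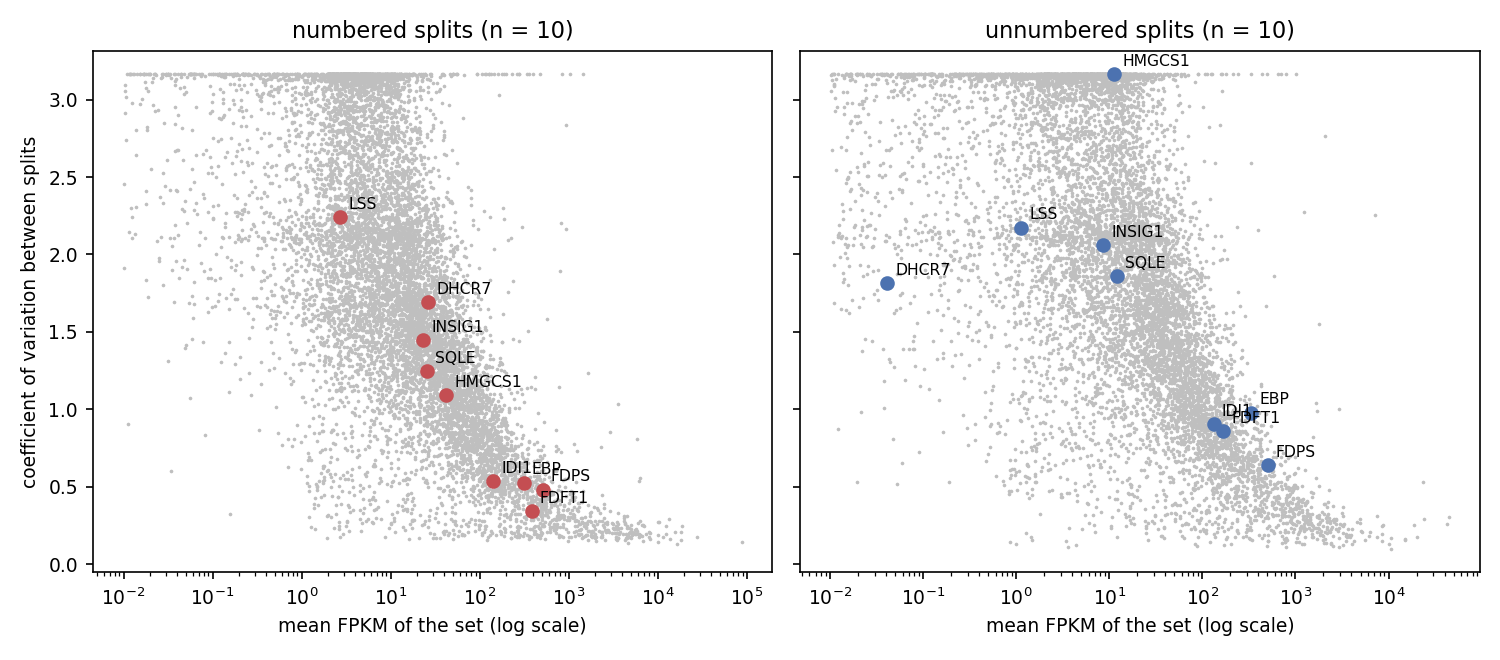
Coefficient of variation between splits (vertical axis) against mean FPKM (horizontal log axis) for all genes (grey) and the 9 genes (coloured), in numbered splits at left and unnumbered splits at right. FDPS, FDFT1, EBP and IDI1 lie at the abundant end, and HMGCS1 in unnumbered splits lies at the ceiling of 3.16 that a single detected split gives.

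Variation between splits followed abundance, as the plot of variation against level shows. At 300 to 1000 FPKM the median coefficient of variation over all genes was 0.410 in numbered and 0.499 in unnumbered splits. In numbered splits FDFT1 had 0.342, FDPS 0.482 and EBP 0.528, around that median and under the upper quartile of 0.548. In unnumbered splits FDPS had 0.639, under the upper quartile of 0.656, and EBP had 0.979, above it. FDFT1, which fell in the band of 100 to 300 FPKM there, had 0.861, against a median of 0.852 for that band. IDI1, in the same band, had 0.538 in numbered splits, where the median was 0.708, and 0.905 in unnumbered splits, where it was 0.852.

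Members varied together only weakly. Over the 20 splits, the 36 pairs had a median Pearson r of 0.25 on the log2(FPKM + 1) scale, from -0.21 to 0.60, and 32 were above 0. Within a set the medians were 0.13 over the 10 numbered and 0.15 over the 10 unnumbered splits. Over all 20 splits the highest pair was HMGCS1 with DHCR7 at 0.60, which had 0.54 within numbered and -0.19 within unnumbered splits. Within unnumbered splits the highest was LSS with DHCR7 at 0.87, with DHCR7 at 0.206 FPKM or less throughout. Splits share their set, depth and detection rate, so these are descriptions only. The genes most like the mean of the 9 were FTH1, the ferritin heavy chain (r = 0.81, 1087 FPKM in numbered and 105 FPKM in unnumbered splits), the ferritin pseudogenes FTH1P8, FTH1P5 and FTH1P7 (0.81, 0.80 and 0.80), whose reads may be those of FTH1, and SKAP1, a lymphocyte signalling adaptor (0.80).

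Other genes of the route were taken from 6 lists of 38 genes, of which 31 passed the filter on low values. None passed limma in either direction, against 5.31% of all genes. At an unadjusted p under 0.05 there were 4 of 31, against 1714 of 10506 over all genes. By the exact rank-sum test 1 passed, SCD, against 9.07% of all genes. A difference above 0 was found for 23 of the 31, against 59.9% of all genes. Some of the 31 reached the filter through 1 set alone, a choice that favours a difference towards that set. All 5 other mevalonate genes were tested, 4 with a difference above 0 (59.9% over all genes). ACAT2, which condenses acetyl-CoA, was detected in 9 numbered and 9 unnumbered splits, with means of 115 FPKM in numbered and 167 FPKM in unnumbered splits. PMVK, phosphomevalonate kinase, was detected in 6 numbered and 2 unnumbered splits, and GGPS1, which makes geranylgeranyl diphosphate, in 4 and 2.

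Of 8 other sterol enzymes 7 were tested, and 6 of these had a difference above 0 (59.9% over all genes). MSMO1, the methylsterol oxidase, was detected in 9 numbered and 7 unnumbered splits, and LBR, a sterol reductase of the nuclear envelope, in 9 and 9. CYP51A1, the lanosterol demethylase, was also detected in 9 and 9, with a mean of 63.7 FPKM in numbered and 40.9 FPKM in unnumbered splits. All 6 other regulators were tested, 4 with a difference above 0 (59.9% over all genes). INSIG2, the second anchor, was detected in 5 numbered and 2 unnumbered splits, the protease MBTPS1 in 5 and 2, and the transcription factor gene SREBF1 in 3 and 1.

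Of 6 uptake and transport genes 5 were tested, 3 with a difference above 0 (59.9% over all genes). NPC2, which carries sterol out of lysosomes, was the most abundant, detected in 9 numbered and 7 unnumbered splits (difference 2.77 ± 1.28 (SE, log2), limma adjusted p = 0.273). STARD4, a sterol carrier, was detected in 10 and 5, and SOAT1, which esterifies cholesterol, in 5 and 5. Of 4 efflux genes 1 was tested, NR1H3, a sterol-sensing nuclear receptor (difference -0.83 ± 0.73 (SE, log2), limma adjusted p = 0.605). It was detected in 1 unnumbered split and in no numbered one, and NR1H2 and ABCG1 in 1 numbered split each.

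The 9 fatty acid genes, a neighbouring SREBP-controlled route, included 7 that were tested, 6 with a difference above 0 (59.9% over all genes). ELOVL5, an elongase, was detected in 10 numbered and 8 unnumbered splits, with a difference of 2.65 ± 0.93 (SE, log2; limma adjusted p = 0.110). SCD, the desaturase that makes oleate, was detected in 10 and 8, with 50.5 FPKM on average in numbered and 14.98 FPKM in unnumbered splits and a difference of 2.04 ± 0.73 (SE, log2; limma adjusted p = 0.124, exact rank-sum adjusted p = 0.0169). ACLY, which supplies cytosolic acetyl-CoA, went the other way without passing, at 16.4 FPKM in numbered and 52.9 FPKM in unnumbered splits on average (limma adjusted p = 0.536).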

How the data were processed

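Expression was measured by RNA-seq in 10 numbered and 10 unnumbered splits. The authors deposited FPKM (fragments per kilobase of transcript and per megafragment mapped) with confidence bounds for each gene. The submitters' processing notes name TopHat 1.4.1 and Cufflinks 2.0.2. No build or annotation for these 20 files is given in the sources used here. Of 55040 genes, 5797 with too little data in every library and 128 with a failed estimate in any were left out, and 49115 stayed. FPKM holds no counts. Depth was estimated from the bounds of 9 mitochondrial genes, and no 2 libraries held identical values.

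Differences were tested here with limma 3.58.1 (R 4.3.3, trended variance) on log2(FPKM + 1) over the 10506 genes with a mean of 1 FPKM or more, 10 splits against 10, adjusted after Benjamini and Hochberg, threshold 0.05. An exact rank-sum test was run beside it. The scripts were tested on simulated data. Tables and figures used Python 3.11.15, numpy 2.4.6, pandas 2.3.3 and matplotlib 3.10.9. An exact 0 may be a failed estimate, so means with SD are given only for genes above 0 in every split, beside medians and ranges. Alternatives were other pseudocounts, filters, scalings and variance models, left-out splits, splits 5 to 8 as a covariate, and, chosen after seeing the data, a fit of the 3 groups and the sums of HMGCS1 and DHCR7 with overlapping antisense genes. Antisense overlaps and strands came from GENCODE 29.

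All 9 members are named. Of other pathway genes, those past the threshold and the 3 most abundant of each list are named. Likeness was the Pearson correlation with the members' mean among genes at a mean of 10 FPKM or more. Members and lists were chosen with earlier results of these data known. Some genes of the pathway are not reported here.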

Additional observations from a re-analysis of the deposited data

Results flagged for a closer look

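In 6 of 18 groups of 10 splits (9 genes in 2 sets), 1 split lay far from the other 9 on the log2(FPKM + 1) scale: its gap to the nearest split, as a share of the range of the group, was above Dixon's 95% critical value. For normally distributed values chance alone does this in about 1 in 20 groups, and the rate for levels with many zeros, such as those of LSS, was not measured. No explanation was tested.

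In the numbered set, IDI1 was lowest in split 1, at 8.05 FPKM with 71.0 FPKM next in split 7. FDPS was lowest in numbered split 9, at 43.4 FPKM with 246 FPKM next in split 2. Split 9 also held the fewest detected members of its set.

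In the unnumbered set, HMGCS1 was highest in split 251, at 113 FPKM with 0.00900 FPKM next in split 249. FDPS was lowest in split 253, at 0.411 FPKM with 147 FPKM next in split 249. Split 253 had an estimated depth of 34.7 M fragments and the fewest genes at 1 FPKM or more, 2942. EBP was lowest in split 250, at 0.0784 FPKM with 49.96 FPKM next in split 233. LSS was highest in split 248, at 7.77 FPKM with 1.91 FPKM next in split 250.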

How the results depend on the processing

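The count of members past the threshold was 1, and 1 again with log2(FPKM + 0.1) and with limma without the trend. It was 0 with log2(FPKM + 10), no filter, size factors, rescaled FPKM, without splits 5 to 8, without splits 9, 247 and 253, with splits 5 to 8 as a covariate and with antisense genes added. It was 2 with a mean of 10 FPKM or more (FDFT1 limma adjusted p = 0.0350) and by the rank-sum test. Leaving out 1 split gave 0 to 1, HMGCS1 or FDFT1: without 232, 250 or 252 FDFT1 passed (limma adjusted p = 0.0394, 0.0317 and 0.0388) and HMGCS1 did not. HMGCS1 stayed above 0 in all 32 alternatives, with a log2 difference of 3.22 to 4.1996 over the left-out splits and adjusted p from 0.00245 to 0.0768, lowest without split 251. LSS reversed without splits 5 to 8 and with them as a covariate (-0.061 each), without numbered split 4 or 7 (-0.09 and -0.20, range over left-out splits -0.20 to 0.465) and in mean rank (-0.6). FDPS reversed without unnumbered split 253 (range -0.23 to 0.97), and DHCR7 with an antisense gene added that shares no exon with it (-0.68). The cause was not tested. The other pathway genes gave 0 except 1 by the rank-sum test, and all genes gave 953 by that test against 558. Size factors gave 286 higher and 205 lower calls over all genes, and rescaled FPKM 345 and 217, against 413 and 145. Members detected per split were 6.2 to 7.4 in numbered and 4 to 5.2 in unnumbered splits under the other detection rules. At the depth of split 247, 1 of its 3 detected members had a lower bound above 0. No paired analysis was possible because the 2 sets share no replicate numbers.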
